A study of Mus musculus with 4 samples.

Results

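The genes described here are 10 genes of neutrophil granules and alarmins, among 21887 protein-coding genes of the mouse autosomes, X and Y. They were taken as a named list, selected on the summits near them in these same libraries, so their counts and scores are given as a description. Of them, 6 are late genes, whose products are made in the later steps of neutrophil maturation: S100a8, S100a9, Ngp, Camp, Ltf and Lcn2. The other 4, Mpo, Elane, Ctsg and Prtn3, encode proteins of the azurophil granule and are switched on in early granulocyte progenitors. Chromatin accessibility at these genes was read from 4 ATAC-seq libraries of haematopoietic stem cells (HSCs), 2 of CD93-positive and 2 of CD93-negative cells. Marrow of pooled femora and tibia from male C57BL/6 wild type mice, 8 weeks old, had been freed of red cells by lysis and of lineage-positive cells on magnetic beads, and HSCs were sorted as LSK cells negative for CD34, Flt3 and CD48 and positive for Slam1. The groups differ by surface CD93 alone, per the labels. The labels do not tell whether replicate libraries stem from different animals, and the spread between them may be technical.

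Neutrophils store their antimicrobial proteins in granules that form in sequence. Azurophil granules are filled at the promyelocyte stage with myeloperoxidase and serine proteases, specific and gelatinase granules later with lactoferrin, cathelicidin and lipocalin, and S100A8 and S100A9 accumulate in the cytosol of the maturing cell. C/EBP factors, with C/EBPε prominent late in the series, and PU.1 and RUNX1, prominent early, are the textbook regulators of these genes. HSCs sit far upstream of this programme.

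The lists of summits differed greatly in length. A summit is the single base at which a called peak was highest, and its deposited score is a −log10 value set against the background of its own library, so scores are not levels that can be compared between libraries. CD93-negative replicate 1 held 7989 summits and replicate 2 held 2755. CD93-positive replicate 2 held 8.90% as many as the longest list, and CD93-positive replicate 1 held 21. Read depth is unknown. Among 18 genes that mark HSCs, 7 had a summit in the gene body or within 10000 bp of it in CD93-negative replicate 1 (Erg, Mllt3, Tal1 and Lyl1 were among these) and 0 had one in each of the other 3 libraries. The share in CD93-negative replicate 1, 38.9%, lay below the 43.5% of all protein-coding genes. In CD93-negative replicate 2 and CD93-positive replicates 2 and 1, 18.5%, 4.62% and 0.0411% of all genes had a summit. A count of 0 of 18 in the CD93-positive libraries is thus near the background. Slamf1, Procr, Mecom, Hlf, Fgd5 and Kit, among the defining markers, had none in any library.

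The promoters that carry the result are shown first. A summit of CD93-negative replicate 1 lay just before the start of S100a8, S100a9, Ngp and Camp. The 250 bases before the start of each, 5′ to 3′ in the direction of transcription, follow from RefSeq (GRCm38.p6, the assembly behind mm10). Capitals mark matches to motifs named below (C/EBP, PU.1, RUNX, TATA box and CCAAT box), and the last base printed is the one before the start.
S100a8 (chr3:90668821-90669070, plus strand): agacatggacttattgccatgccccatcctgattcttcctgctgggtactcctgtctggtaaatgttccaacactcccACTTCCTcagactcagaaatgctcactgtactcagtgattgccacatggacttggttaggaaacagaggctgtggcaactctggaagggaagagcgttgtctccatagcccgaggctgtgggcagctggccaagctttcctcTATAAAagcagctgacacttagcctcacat
S100a9 (chr3:90695722-90695971, minus strand): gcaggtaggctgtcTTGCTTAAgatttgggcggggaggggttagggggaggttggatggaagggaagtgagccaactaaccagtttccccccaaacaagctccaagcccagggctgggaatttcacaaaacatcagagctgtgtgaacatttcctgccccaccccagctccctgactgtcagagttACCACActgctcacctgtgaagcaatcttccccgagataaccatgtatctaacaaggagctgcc
Ngp (chr9:110419558-110419807, plus strand): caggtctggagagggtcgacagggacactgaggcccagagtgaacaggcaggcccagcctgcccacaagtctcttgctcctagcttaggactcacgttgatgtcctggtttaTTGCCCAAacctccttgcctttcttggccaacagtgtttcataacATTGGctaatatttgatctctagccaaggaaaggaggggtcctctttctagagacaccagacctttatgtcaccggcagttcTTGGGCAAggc
Camp (chr9:109849457-109849706, minus strand): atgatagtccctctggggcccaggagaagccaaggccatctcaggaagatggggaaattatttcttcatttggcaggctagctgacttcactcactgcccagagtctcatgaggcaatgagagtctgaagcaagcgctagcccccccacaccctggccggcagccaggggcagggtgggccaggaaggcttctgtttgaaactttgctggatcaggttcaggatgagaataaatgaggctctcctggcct

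The same stretch of the azurophil genes is given for contrast. No library listed a summit in the gene body or within 10000 bp of any of them. Ltf and Lcn2, late genes that also had no start summit, are not printed.
Mpo (chr11:87793534-87793783, plus strand): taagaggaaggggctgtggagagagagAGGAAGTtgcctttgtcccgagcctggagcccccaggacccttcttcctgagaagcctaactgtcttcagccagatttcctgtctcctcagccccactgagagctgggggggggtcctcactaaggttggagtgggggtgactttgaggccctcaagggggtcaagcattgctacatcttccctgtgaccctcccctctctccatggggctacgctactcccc
Elane (chr10:79886062-79886311, plus strand): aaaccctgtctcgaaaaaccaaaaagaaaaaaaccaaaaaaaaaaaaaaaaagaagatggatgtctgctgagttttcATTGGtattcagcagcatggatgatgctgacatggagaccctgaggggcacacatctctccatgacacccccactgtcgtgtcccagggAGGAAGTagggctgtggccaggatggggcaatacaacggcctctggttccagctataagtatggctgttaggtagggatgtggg
Ctsg (chr14:56102575-56102824, minus strand): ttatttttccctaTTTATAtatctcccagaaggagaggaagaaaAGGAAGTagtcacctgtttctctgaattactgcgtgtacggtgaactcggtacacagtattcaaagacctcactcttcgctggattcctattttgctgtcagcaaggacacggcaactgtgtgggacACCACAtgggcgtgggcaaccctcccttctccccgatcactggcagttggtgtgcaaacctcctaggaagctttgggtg
Prtn3 (chr10:79879417-79879666, plus strand): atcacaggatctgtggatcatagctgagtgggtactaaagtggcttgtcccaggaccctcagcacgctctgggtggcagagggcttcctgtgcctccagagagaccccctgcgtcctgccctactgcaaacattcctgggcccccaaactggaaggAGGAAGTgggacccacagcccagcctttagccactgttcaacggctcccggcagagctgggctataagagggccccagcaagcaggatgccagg

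In CD93-negative replicate 1, accessible sites were listed at the starts of 4 of the 6 late genes and of none of the 4 azurophil genes. In CD93-negative replicate 2, the start of S100a8 alone had such a site. The wider window was the gene body and 10000 bp on either side. In it, CD93-negative replicate 1 had a summit at 5 of 6 late genes (83.3%) and 0 of 4 azurophil genes. The share of all protein-coding genes was 43.5%. CD93-negative replicate 2 had a summit at 1 late gene, S100a8, and at 0 azurophil genes, against 18.5% of all genes. CD93-positive replicate 2 had 0 of 10, against 4.62%, and CD93-positive replicate 1 had 0 of 10, against 0.0411%. Within 500 bp of a listed start, the counts were 4 of 10 genes in CD93-negative replicate 1 and 1 of 10 in replicate 2. Of the 17492 genes with a listed start, 33.9% and 13.6% had a summit there, so both counts were near the background. In CD93-positive replicates 1 and 2 the counts were 0 of 10, where 0.0172% and 3.46% of genes had a start summit. The genes were chosen with these counts known, so the split between late and azurophil genes is a description and was not tested. The 10 genes also share neighbourhoods: S100a8 and S100a9 lie 22.6 kb apart, Prtn3 and Elane 3.14 kb apart, and Camp, Ngp and Ltf within a stretch of chromosome 9 with gaps of 570 kb and 596 kb.

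**Figure D1:**
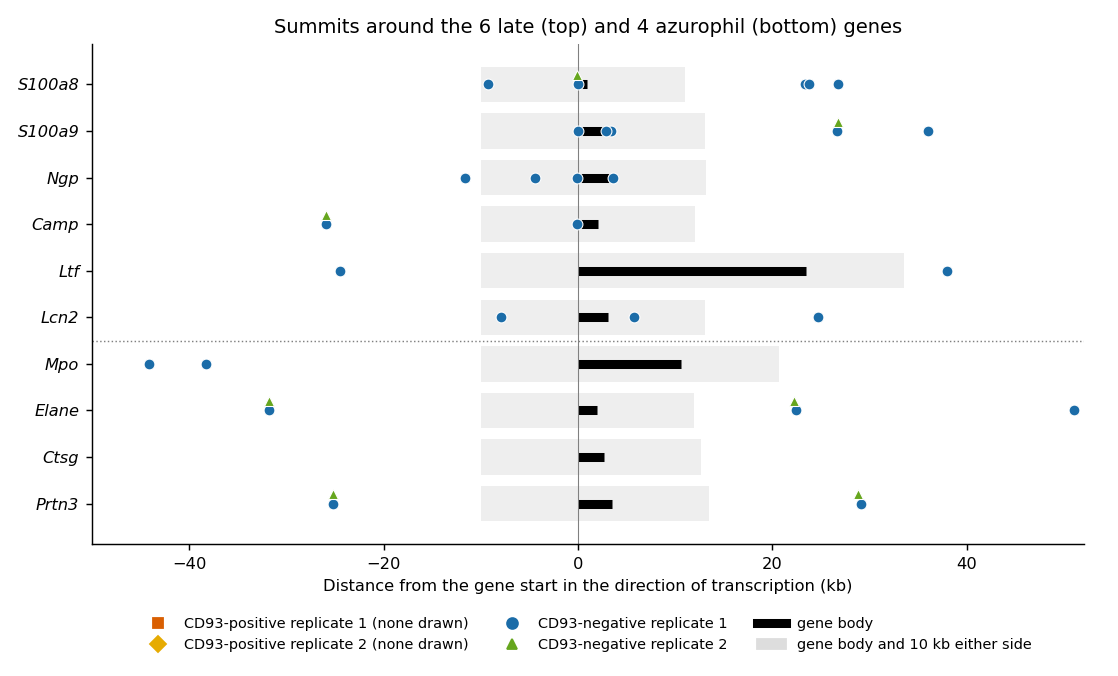
Positions of all summits within 50 kb of each gene, as distance from the gene start in kb in the direction of transcription, with the gene body as a black bar and the 10 kb window in grey. Circles are CD93-negative replicate 1 and triangles CD93-negative replicate 2, and neither CD93-positive library has a summit in the drawn range. Circles lie at the starts of S100a8, S100a9, Ngp and Camp, a triangle at S100a8, and none lies in the windows of Mpo, Elane, Ctsg, Prtn3 and Ltf.

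S100a8 and S100a9 encode the calcium-binding subunits of calprotectin, an alarmin released by activated neutrophils. S100a8 (gene ID 20201, chromosome 3, 90669071 to 90670034, plus strand) was the only one of the 10 genes with a summit in more than 1 library. In CD93-negative replicate 1 the summit lay 2 bp before the start, at 90669069, with a score of 16.9 and rank 4757 of 7989. In CD93-negative replicate 2 it lay 86 bp before the start, at 90668985, with a score of 7.77 and rank 1897 of 2755. Neither CD93-positive library listed a summit there: the nearest one of CD93-positive replicate 2 was 4.95 Mb away, at Ensa, and CD93-positive replicate 1 had none on chromosome 3. The CD93-negative summits were 84 bp apart and both lay in the stretch printed above, the former downstream and the latter upstream of the TATA box match that begins 30 bases before the start. A second summit of CD93-negative replicate 1 in the window, at 90659765 (score 13.7, rank 5522), lay 9306 bp before the start and was nearer to S100a7a, 1635 bp away.

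S100a9 (gene ID 20202, chromosome 3, 90692630 to 90695721, minus strand) had 3 summits in CD93-negative replicate 1 and none in its window in the other libraries. One lay 52 bp before the start, at 90695773 (score 10.98, rank 6258). The other 2 lay at the far end of this short gene, 215 bp inside its 3′ end at 90692845 (score 12.5, rank 5824) and 266 bp beyond it at 90692364 (score 11.04, rank 6243). No exon annotation was used here, so the site inside the gene is not assigned to an exon or intron. The nearest summit of CD93-negative replicate 2 was the one at S100a8, 23.6 kb away, and that of CD93-positive replicate 2 was 4.93 Mb away.

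Ngp, which encodes a cathelicidin-related protein of specific granules, also had 3 summits in CD93-negative replicate 1 alone (gene ID 18054, chromosome 9, 110419808 to 110423012, plus strand). The site 64 bp before the start, at 110419744, was among the weakest of the list, with a score of 4.95 and rank 7793. A stronger one lay 4437 bp before the start at 110415371 (score 17.6, rank 4601), and another 405 bp beyond the 3′ end at 110423417 (score 7.23, rank 7271). All 3 were nearer to Ngp than to any other protein-coding gene. In this library, 1.53% of all genes had at least 3 summits in the window, S100a9 and Ngp among them. Both genes were selected on these summits, so the share is a description and no test. In the other libraries the nearest summits were 234 kb from Ngp (CD93-negative replicate 2), 488 kb (CD93-positive replicate 2) and 26.2 Mb (CD93-positive replicate 1) away.

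Camp, the gene of the cathelicidin antimicrobial peptide, had a single summit in its window, in CD93-negative replicate 1 (gene ID 12796, chromosome 9, 109847377 to 109849456, minus strand). It lay 134 bp before the start, at 109849590, with a score of 17.1 and rank 4730, close to the values at S100a8. Outside the window, both CD93-negative libraries listed a site 25.9 and 26.0 kb before the start, which belongs to the start of Cdc25a, a cell-cycle phosphatase gene. The nearest summit of CD93-positive replicate 2 was 82.2 kb away, at Map4, and that of CD93-positive replicate 1 was 25.7 Mb away.

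Ltf and Lcn2, which encode lactoferrin and lipocalin 2, iron-binding and siderophore-binding proteins of specific granules, had no summit at their starts. Lcn2 (gene ID 16819, chromosome 2, 32384637 to 32387739, minus strand) entered the count of the 10000 bp window through neighbours. Its summits in CD93-negative replicate 1 lay 47 bp from the start of 1110008P14Rik (at 32381962, score 29.5, rank 2641) and 239 bp from the start of Ptges2, a prostaglandin E synthase gene (at 32395651, score 6.00, rank 7591). When a summit counted for its nearest gene alone, 4 late genes were left, without Lcn2. Ltf (gene ID 17002, chromosome 9, 111019292 to 111042766, plus strand) had none in the window. The nearest, 14492 bp beyond its 3′ end with a score of 5.10, lay 12 bp from the start of Ccrl2, a chemokine-receptor-like gene. These values show how the 10000 bp limit fell: the S100a8 site at 9306 bp was just inside it, and a site 11633 bp before Ngp, at the start of Ptpn23, just outside.

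No summit lay in the window of any azurophil gene in any library. Mpo, the gene of myeloperoxidase (gene ID 17523, chromosome 11, 87793784 to 87804412, plus strand), was 38.2 kb from the nearest summit of CD93-negative replicate 1, near Tspoap1. In CD93-negative replicate 2 and CD93-positive replicate 2 the nearest was at Supt4a, 56.3 and 56.4 kb away. Elane, the gene of neutrophil elastase (gene ID 50701, chromosome 10, 79886312 to 79888216), and its neighbour Prtn3, that of proteinase 3 (gene ID 19152, 79879667 to 79883174), both on the plus strand, lie in a gene-dense stretch. Sites were listed on either side of the pair in both CD93-negative libraries, at Med16, 20.5 and 20.3 kb from Elane, and at Ptbp1, 25.2 kb from Prtn3 in each. The Ptbp1 site scored 71.97 in CD93-negative replicate 1, rank 293, well above every summit in the windows of the 10 genes. Between these flanking sites neither library listed a summit, and whether a weak site there could have been listed was not tested. Ctsg, the gene of cathepsin G (gene ID 13035, chromosome 14, 56099885 to 56102574, minus strand), had its nearest summits 215 and 226 kb away in CD93-negative replicates 1 and 2.

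The summits at the late genes were weak for their lists. The 11 summits in the windows in CD93-negative replicate 1 scored 4.95 to 29.5 and ranked 2641 to 7793 of 7989. Of them, 10 scored below the median of the list, 20.6, the exception being the one at 1110008P14Rik. The S100a8 summit of CD93-negative replicate 2 also scored below the median of its list, 9.81. With the CD93-negative lists shortened to as many highest-scoring summits as CD93-positive replicate 2 holds, none of the 10 genes had a summit in either CD93-negative library. At that length 4.79% and 5.05% of all genes had a summit in CD93-negative replicates 1 and 2 and 4.62% in CD93-positive replicate 2, so a count of 0 of 10 is near the background in each. CD93-positive replicate 1, with 21 summits, could not be matched. Of the CD93-negative replicate 1 summits ranked below the middle of the list, 0.676% lay within 250 bp of a summit of CD93-positive replicate 2 and 12.1% within 250 bp of one of CD93-negative replicate 2, against 16.6% and 51.9% of those ranked above it. Of the 11 summits here, 1, at S100a8, recurred in CD93-negative replicate 2 and 0 in a CD93-positive library. With CD93-negative replicate 1 reduced to 2755 summits, the length of replicate 2, the S100a8 site was no longer in its list. The list of replicate 2 is not changed by this setting.

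**Figure D2:**
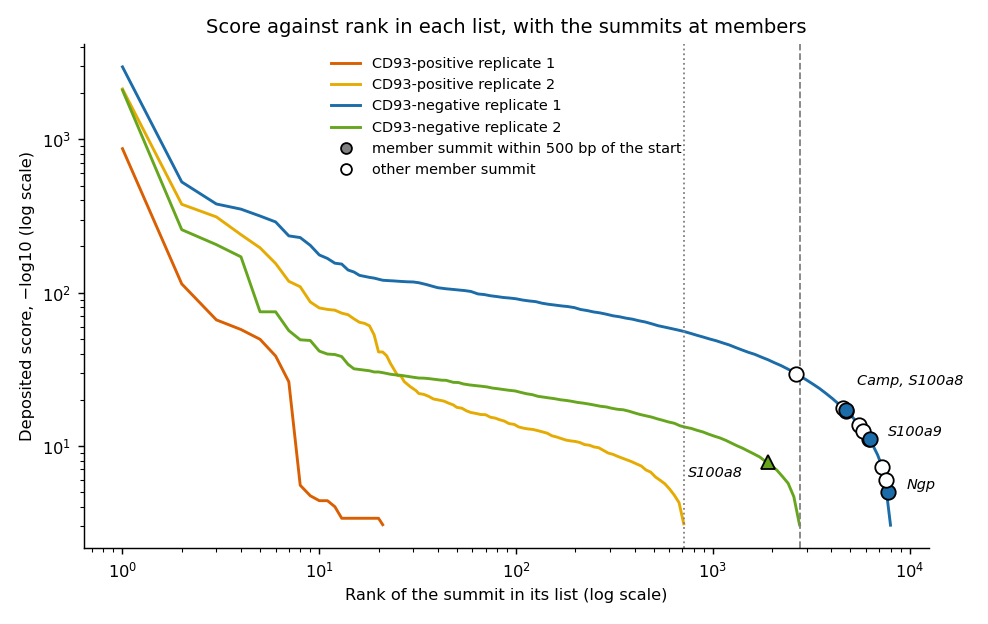
Deposited score (−log10, log scale) against rank in the list (log scale) for the 4 libraries as lines, with the summits in the windows of the 10 genes as circles (CD93-negative replicate 1) and a triangle (replicate 2), filled where they lie within 500 bp of the gene start. Vertical lines mark the lengths of the lists of CD93-positive replicate 2 (dotted) and CD93-negative replicate 2 (dashed). The filled points lie at scores of 4.95 to 17.1, all to the right of the dotted line.

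The promoters of the late genes had few CpG dinucleotides, unlike most promoters with a summit. The ratio of observed to expected CpG in the RefSeq window of 250 bases before and 50 after the start was 0.214 for S100a8, 0.101 for S100a9, 0.156 for Ngp and 0.125 for Camp. The median was 0.567 over all 21263 promoter entries of protein-coding genes, 0.843 over the 6697 entries with a summit within 500 bp in CD93-negative replicate 1, and 0.861 and 0.885 over those in CD93-negative replicate 2 and CD93-positive replicate 2. Of the 6697, only 31 had a lower ratio than S100a8, and 10 a lower one than S100a9. The azurophil genes were alike in part: Mpo had 0.0871 and Prtn3 0.145, while Elane and Ctsg were higher, at 0.314 and 0.464. Ltf and Lcn2, at 0.157 and 0.127, were as low as the late genes with a start summit, so a low CpG ratio did not separate the genes with a summit from those without.

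**Figure D3:**
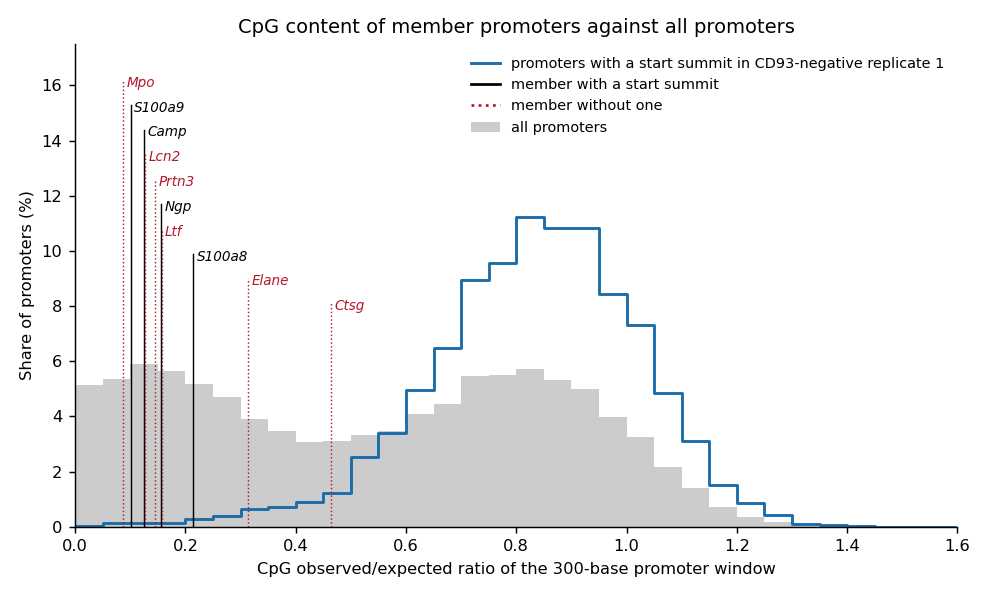
Distribution of the observed-to-expected CpG ratio over all promoters (grey bars) and over promoters with a summit within 500 bp of the start in CD93-negative replicate 1 (blue line), as a share of each set in %, with the 10 genes as vertical lines (solid with a start summit, dotted without). The blue line peaks near its median of 0.843, whereas the solid lines lie between 0.101 and 0.214.

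Few low-CpG promoters had a summit at all. In the lowest quartile of the ratio (up to 0.226), 0.734% of 5316 promoters had a start summit in CD93-negative replicate 1, against 9.41%, 48.4% and 67.5% in the next quartiles. The corresponding share was 0.0376% in CD93-negative replicate 2 and 0% in the CD93-positive libraries. These promoters of CD93-negative replicate 1 belonged to 35 genes, and 29 of them had no start of a higher quartile within 1000 bp. S100a8, S100a9, Ngp and Camp, which were selected on these summits, were 4 of the 29. A further 3 came from the fixed lists and are neutrophil genes: Pglyrp1, a peptidoglycan-binding granule protein (76 bp before the start, score 10.3), Trem1, an activating receptor (3 bp before, score 15.5), and Ifitm6 (62 bp after, score 5.36). The other 22 were of mixed kind, and some examples, chosen after their values were seen, are the complement gene C3, the IL-36 cytokine gene Il1f9, the B-cell adaptor gene Bank1, the red-cell membrane gene Epb42 and the lysosomal peptidase gene Tpp1. The fixed lists were also chosen with earlier results known. How many neutrophil genes of the lowest quartile lack a start summit is not given here, so no excess of such genes was measured. Scores over the 29 genes had a median of 8.78 (4.63 to 39.4), against 23.5 for all 5356 start summits of that library. In CD93-negative replicate 2 the set held 2 genes, S100a8 and Traf3ip3. S100a8 was thus the only gene of this set in both libraries.

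Short motifs in the promoters were divided between the late and azurophil genes, with no test made. Motifs were searched on both strands of the same RefSeq window. The C/EBP pattern TTGCNNAA was found in 4 of 6 late genes and 0 of 4 azurophil genes, against 10.2% of all promoters. Its matches began 236 bases before the start of S100a9, 138 and 11 before that of Ngp, 75 before that of Ltf and 216 before that of Lcn2. The PU.1 pattern AGGAAGT was found in all 4 azurophil genes and in 1 late gene, S100a8, against 9.07% of all promoters. It began 223 bases before the start of Mpo, 84 before that of Elane, 206 before that of Ctsg, 94 before that of Prtn3 and 172 before that of S100a8. Ltf and Lcn2 have the C/EBP match and no start summit, and S100a8 and Camp have a start summit and no C/EBP match, so the matches did not follow the summits.

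The other patterns were less divided. The RUNX pattern TGTGGT was found in S100a9, Ltf and Ctsg (15.0% of all promoters), the TATA box TATAAA in S100a8, S100a9 and Ctsg (12.6%) and the CCAAT box CCAAT in Ngp, Ltf and Elane (38.2%). In S100a8 the TATAAA lies on the coding strand 30 bases before the start, in S100a9 it begins at the listed start itself, and in Ctsg it is on the opposite strand 237 bases before the start. In the 50 bases before the start, on the coding strand, TATAAA was found in 3.17% of all promoters and in 0.941% of those with a start summit in CD93-negative replicate 1, S100a8 among them. The MYB pattern AACNG was found in all 10 genes and in 79.1% of promoters, and the GATA pattern GATAAG and the AP-1 pattern TGANTCA in none of the 10. In Ltf the CCAAT and C/EBP matches overlap. Camp had a match to the MYB pattern alone. Promoters of the lowest CpG quartile held the C/EBP and PU.1 patterns at 15.0% and 12.5%. A match is a string of letters and not a bound site.

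Other granule genes, from lists of 15 azurophil and 22 specific, gelatinase and secretory granule genes, were listed in the CD93-negative libraries alone. The azurophil list also holds Epx, Prg2 and Prg3, genes of eosinophil granules, which had no summit in any library. Of the 37 genes, 13 had a summit in the 10000 bp window in CD93-negative replicate 1 (35.1% against 43.5% of all genes). In replicate 2, 4 of 37 had one (10.8% against 18.5%). No gene of the 37 had one in either CD93-positive library. The difference from all genes was -8.05 ± 0.446 percentage points in CD93-negative and -2.33 ± 3.24 in CD93-positive libraries (mean ± SD, n = 2 each). The groups differed by 5.72 points, which gave p = 0.333 in an exact permutation test (two-sided), a value that no split of 2 and 2 can go below. The sign turned with 50000 bp windows or with lists of the length of CD93-positive replicate 2, to -1.57 and -0.114 points. The CD93-positive values could not go below minus the share of all genes, 0.0411% and 4.62%.

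By group, the azurophil list had 6 of 15 in CD93-negative replicate 1, among them Ctsd, the lysosomal protease cathepsin D, with a start summit in both CD93-negative libraries (scores 29.6 and 6.73, 29 and 58 bp from the start). Ctsc, which activates the granule serine proteases, and Gusb, a lysosomal glucuronidase, had a start summit in replicate 1. The summits in the windows of Srgn, a granule proteoglycan, and Prss57, a neutrophil serine protease, lay nearest to Vps26a and Fstl3 instead. The list of later granules had 7 of 22 (31.8%) in replicate 1, below the 43.5% of all genes. Pglyrp1 was its single gene with a start summit, 1 of 16 with a listed start (6.25%). The azurophil list had 3 of 11 (27.3%) at starts, against 33.9% of all genes. In replicate 2 the windows of 3 of 15 azurophil and 1 of 22 later granule genes had a summit. Late genes were thus not ahead of azurophil genes in these lists, unlike among the 10 genes, and the difference was not tested. Hp, the haptoglobin gene, was the single gene of the later granule list in replicate 2, and its summits in both libraries lay nearest to Dhx38. Fcnb, Adam8, Cyba and Itgb2 were nearest to a summit of their own away from a listed start. Mmp8, Mmp9, Cybb, Cd177, Olfm4, Retnlg, Chil3 and Itgam were among the 15 with none. The list of other S100 genes, alarmins and receptors had 6 of 14, or 42.9% against 43.5% of all genes, in CD93-negative replicate 1, and 5 of 14, or 35.7% against 18.5% (interval 12.8 to 64.9), in replicate 2. The 5 were listed in both libraries, but Hmgb1, a nuclear alarmin, was the single one nearest to its summits, 11 and 249 bp from the start (scores 55.3 and 4.46). The summits in the windows of S100a1 and S100a13, elsewhere in the S100 cluster, were shared and lay nearest to Chtop, those of the cytokine gene Il1a nearest to Ckap2l, and those of the receptor gene Ager nearest to Agpat1 and Rnf5. The endotoxin receptor gene Tlr4 was nearest to a summit of replicate 1 alone.

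**Figure D4:**
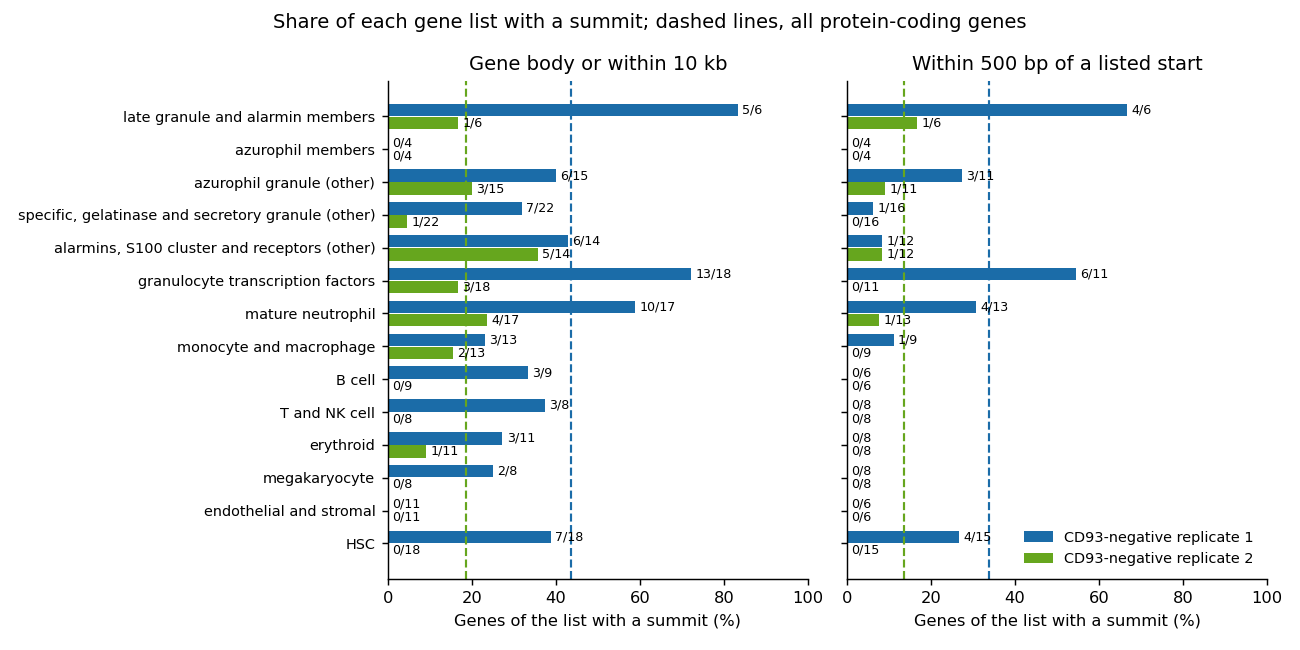
Share of the genes of each list, in %, with a summit in the gene body or within 10 kb (left) and within 500 bp of a listed start (right), for CD93-negative replicates 1 (blue) and 2 (green), with counts beside the bars and dashed lines at the shares of all protein-coding genes. On the left, the late genes (5 of 6), granulocyte transcription factors (13 of 18) and mature neutrophil genes (10 of 17) lie above the blue line at 43.5%.

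Genes of the granulocyte transcription factor list were often listed in CD93-negative replicate 1, but not above the share of all genes in replicate 2. Of 18 transcription factor genes, 13 had a summit in the window (72.2%, interval 46.5 to 90.3, against 43.5% of all genes). Each of the 13 was the gene nearest to a summit, against 33.1% of all genes. The interval covers counting error within this library only. The list was chosen with earlier results of these data known, so the interval is no test. Cebpb had one 8 bp from its start (score 22.0), Irf8 5 bp (score 8.64) and Cbfb, the partner of RUNX factors, 82 bp (score 13.5). Cebpe, the late C/EBP factor, Cebpd, Spi1, which encodes PU.1, Runx1, Rara, Klf4, Klf5, Id1, Id2 and Egr1 were the others. The list is not one of genes confined to granulocytes. Among the genes with a summit, Runx1, Cbfb, Klf4, Klf5, Id1, Id2 and Egr1 are only examples of this. Cebpa, Gfi1, Myb, Gata2 and Lmo2 had none. At listed starts the counts were 6 of 11 in CD93-negative replicate 1 (54.5% against 33.9% of all genes) and 0 of 11 in replicate 2 (against 13.6%). In CD93-negative replicate 2, Cbfb, Klf5 and Egr1 had a summit in the window (3 of 18, or 16.7%, against 18.5% of all genes). The one at Cbfb lay 54393 bp from its start and nearest to D230025D16Rik. The CD93-positive libraries had none.

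Markers of mature neutrophils were listed at shares whose intervals cover those of all genes. Of 17 such genes, 10 had a summit in the window in CD93-negative replicate 1 (58.8%, interval 32.9 to 81.6, against 43.5% of all genes) and 9 were nearest to one: Cxcr2, Csf3r, Trem1, Trem3, Clec4d, Ifitm6, G0s2, Mxd1 and Lmnb1. The last 2 are examples of genes that are not confined to neutrophils. At listed starts the count was 4 of 13, or 30.8%, near the 33.9% of all genes. The defining marker Ly6g had none in any library, nor had Fpr2, Ccl6, Wfdc21 and Anxa1. CD93-negative replicate 2 had 4 of 17 (23.5% against 18.5%), namely Il1b, Mxd1, Clec4d and Lmnb1, and CD93-positive replicate 2 had Mxd1 alone, 238 bp from its start. Clec4d, a C-type lectin of neutrophils and monocytes, had a site in both CD93-negative libraries, 1736 and 1813 bp from its start (scores 12.5 and 4.31).

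Genes of other blood and marrow cells were also listed in CD93-negative replicate 1, where 43.5% of all genes were. In this library, monocyte and macrophage genes numbered 3 of 13, B-cell genes 3 of 9, T and NK-cell genes 3 of 8, erythroid genes 3 of 11, megakaryocyte genes 2 of 8 and endothelial and stromal genes 0 of 11. All these intervals cover 43.5%, from 5.04 to 53.8 for monocytes to 8.52 to 75.5 for T and NK cells, except the endothelial and stromal one, which ends at 28.5. None of these lists was tested against all genes or against the neutrophil lists. Summits in the windows of Cd14, a monocyte receptor gene, and Epor, the erythropoietin receptor gene, in both CD93-negative libraries lay nearest to Tmco6 and Swsap1. At listed starts, Cd68 was the single gene of these 6 lists with a summit, 120 bp away, in CD93-negative replicate 1. It was 1 of 9 monocyte and macrophage genes with a listed start, and the other lists held 6 or 8 such genes each. The share of all genes was 33.9%. In the other libraries none of the 6 lists had a start summit. A summit in the window of Cd68 in CD93-positive replicate 2 (score 7.87) lay nearest to Eif4a1. HSC genes had 4 of 15 at starts in CD93-negative replicate 1 (26.7%, against 33.9% of all genes). Whether the summits at the late granule genes came from maturing granulocytes in the sorted fraction or from the stem cells themselves was not tested. Peak lists of bulk cells do not tell a site open in a few cells from one weakly open in many.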

How the data were processed

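ATAC-seq summits of 4 libraries, 2 per group, were used as the authors deposited them: 1 list per library, not pooled. Bowtie2 alignment, MACS2 peak calling and the mm10 build are named per the submitters' processing notes. Not given in the sources used here: versions, thresholds, read filters and any Tn5 shift. The score column that the authors deposited was read as −log10 p or q (which one is not stated), and served to rank or filter within a list. Groups and replicate numbers follow the sample titles; the numbers inside the summit names differ from them.

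Positions are 1-based on mm10. RefSeq's GRCm38.p6 gene table gave gene bodies, and its promoter table gave starts, strands and sequences, which lists 17492 of the 21887 genes; all 10 genes and all 164 list genes matched a gene symbol. A summit within 500 bp of a start is called a start summit, and summits within 250 bp of each other are called shared. The CpG ratio is the number of CpG times the length over the product of the C and G numbers. The 10 genes and the 12 lists were chosen with earlier results of these data known. Named genes were the 10, the genes nearest to their summits or in their windows, and list genes with a summit in a CD93-positive or in both CD93-negative libraries; others are named as examples. The start window, the CpG quartiles and the 2755-summit setting were added after seeing the data. Intervals are exact 95% ones, are given for shares of the fixed lists, and cover counting error only. Python 3.11.15, numpy 2.4.6, pandas 2.3.3, scipy 1.17.1 and matplotlib 3.10.9 were used, and the window counts were tested on simulated data.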

Additional observations from a re-analysis of the deposited data

How the results depend on the processing

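Counts in the CD93-positive libraries were 0 under every alternative run. In CD93-negative replicate 1, the count of 5 of the 10 genes, all late, and of 11 summits became 1 and 1 within gene bodies alone (S100a9), 0 and 0 with lists of the length of CD93-positive replicate 2, 1 and 1 with 2755 summits (Lcn2, through its neighbour), and 9 (3 azurophil) and 21 with 50000 bp on either side. The summits numbered 7 with 2000 bp and 4 within 500 bp of a start. In CD93-negative replicate 2, the single gene and summit, S100a8, became 0 within gene bodies, at a score of at least 10 and with lists of that shorter length; with 50000 bp there were 5 genes (3 late, 2 azurophil) and 4 summits. No azurophil gene had a summit under any alternative but 50000 bp. With 2755 summits, 18.4% and 18.5% of all genes had a summit in CD93-negative replicates 1 and 2, so 1 of 10 in each was not above the background. For gene bodies alone and for 2000, 5000, 20000 and 50000 bp no share of all genes is given here. Those counts stand without a background. Windows of 5000 and 20000 bp, a score of at least 5, merging within 500 bp and nearest-gene counting kept the counts of genes within 1.5 times. The number of summits shared with another list was 1 at all 4 distances.

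For the 37 other granule genes, the difference between groups of 5.72 points was -1.57 with 50000 bp (exact permutation p = 0.667) and -0.114 with lists of the length of CD93-positive replicate 2 (p = 1), and otherwise positive, from 3.43 to 8.01 with each library left out and from 4.76 to 11.2 under the other settings. In the main setting the CD93-positive libraries had 0 of 37 genes, so their values, -0.0411 and -4.62 points, were the lowest possible. A positive difference is thus no measure of more granule genes in these libraries. Its cause was not tested. With a replicate block the difference between groups was 5.72 (exact sign-flip p = 0.5, the smallest 2 pairs allow). Same-numbered libraries did not clearly deviate together (correlation of 0.07 across genes), so the numbers were not taken as pairing.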
